A study of Mus musculus with 7 samples.

Results

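The sites described here are the accessible chromatin sites of mouse epiblast-like cells (EpiLCs) that lie in gene deserts. They are the autosomal sites of the deposited table whose midpoint is over 500 kb from the nearest transcription start site (TSS) of a curated RefSeq transcript of mm10. Of 75880 listed sites, 73736 were autosomal, and 2958 of these, 4.01%, met the rule. Position alone chose them, and no measured value entered the rule.

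ATAC-seq was carried out on WT and Smad2/3 DKO EpiLCs of 129/Sv//Ev background at day 2, with 3 differentiations per genotype and 75000 cells per transposition, and on 1 control of Tn5-treated genomic DNA (100 ng). All cells of both genotypes had spent 48 h in 12 ng/ml Fgf2 and 20 ng/ml activin A, the ligand that signals through Smad2/3. The WT cells were the clone CCE, and the Smad2/3 DKO cells were the clone KT15.1F6, made by deleting exon 1 of Smad3 with a CRISPR nickase in ESCs homozygous for the Smad2 allele tm1Rob. Each genotype was thus 1 clone, so that genotype and clone cannot be told apart. The table gives 1 value per genotype at each site, the concentration, which is the log2 mean of normalized reads over the 3 differentiations. Since single differentiations are not listed, sequencing depth and replicate spread cannot be given here, and no value below has an error or a test. A difference is the Smad2/3 DKO minus the WT concentration, and a site is called lower or higher when the difference passes 1.5-fold, 0.585 on the log2 scale.

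A gene desert is a long stretch of a chromosome with no gene start. Deserts often flank genes that control development or neuronal wiring, and several are known to hold enhancers that act on a promoter far away. In ATAC-seq the Tn5 transposase inserts adapters where DNA is free of nucleosomes, so that enhancers and promoters collect reads. Nodal and activin receptors phosphorylate Smad2 and Smad3, which enter the nucleus and bind DNA weakly by themselves, relying on partners such as FoxH1. Oct4 (Pou5f1), a POU factor that binds the octamer, and Otx2 open distal elements as embryonic stem cells become primed epiblast.

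As a check of the labels, the Smad3 promoter fell from a WT concentration of 5.42 to the lowest listed Smad2/3 DKO value, -0.10. The Smad2 promoter was 8.35 in WT and 8.28 in Smad2/3 DKO, which bears on the tm1Rob allele only if that allele lacks the promoter. Of the epiblast and priming markers, Pou5f1, Fgf5, Pou3f1, Dnmt3b and Sox2 had a promoter site, at WT concentrations of 5.66 to 7.71, and no site was listed within 1 kb of an Otx2 TSS. Promoters of primitive endoderm, trophectoderm, mesoderm and neural markers were listed as well, such as Eomes at 8.69 and Pax6 at 8.70, so a listed promoter does not by itself mark a cell type.

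The sequences below are desert sites picked for a motif match, a value or a position, and are not typical of desert sites. Only 4.77% of all desert sites held an octamer, for example. Each sequence is the 300 bases around the midpoint on the plus strand of the mm10 reference. That reference is of strain C57BL/6J and not of the 129/Sv//Ev cells. Each desert is named by the genes whose TSSs bound it, and capitals mark exact matches to the motifs searched for. The first 3 are desert sites lower in Smad2/3 DKO that hold an octamer (ATGCAAAT, or ATTTGCAT on the other strand) or a FoxH1 match (TGTGGATT).
Gm28590 to Dpp10, chr1:123322815-123323114: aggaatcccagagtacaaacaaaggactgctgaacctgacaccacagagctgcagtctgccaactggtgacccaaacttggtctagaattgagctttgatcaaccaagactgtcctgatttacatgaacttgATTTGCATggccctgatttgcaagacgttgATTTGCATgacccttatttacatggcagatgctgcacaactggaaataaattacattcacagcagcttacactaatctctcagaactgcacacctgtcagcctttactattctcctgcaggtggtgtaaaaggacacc
Cobl to 4930554G24Rik, chr11:13112595-13112894: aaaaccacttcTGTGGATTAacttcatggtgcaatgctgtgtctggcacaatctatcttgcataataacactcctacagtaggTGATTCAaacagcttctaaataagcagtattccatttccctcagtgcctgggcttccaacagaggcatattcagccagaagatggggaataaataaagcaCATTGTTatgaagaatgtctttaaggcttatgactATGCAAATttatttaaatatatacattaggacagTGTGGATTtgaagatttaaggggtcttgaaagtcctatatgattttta
Gm6634 to Sis, chr3:72231435-72231734: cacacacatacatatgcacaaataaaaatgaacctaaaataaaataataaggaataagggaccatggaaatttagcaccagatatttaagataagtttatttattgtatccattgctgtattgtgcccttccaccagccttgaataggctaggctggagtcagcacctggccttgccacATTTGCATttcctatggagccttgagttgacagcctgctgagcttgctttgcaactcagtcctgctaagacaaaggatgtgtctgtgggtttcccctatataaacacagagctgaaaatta
The site between Gm28590 and Dpp10, a dipeptidyl peptidase-like subunit of potassium channels, held 2 octamers and had a concentration of 6.86 in WT and 5.54 in Smad2/3 DKO, a difference of -1.32. The site between Cobl, an actin nucleator, and 4930554G24Rik held an octamer, 2 FoxH1 matches, the first of which overlaps an Otx2 match (GGATTA), and a Sox (CATTGTT) and an AP-1 match (TGANTCA), and its concentration was 6.00 in WT and 4.72 in Smad2/3 DKO. The site between Gm6634 and Sis, the intestinal sucrase-isomaltase gene, went from 6.39 to 5.26 with 1 octamer. All 3 were chosen for a large decrease and a WT concentration of at least 6. They lie above the median WT concentration of desert sites, 4.76, by that choice.

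The next 4 desert sites were picked for other traits. In order, they have the highest WT concentration, the greatest distance from a TSS, and a CTCF core match with a high concentration. The last has the largest increase among sites with a Smad2/3 DKO concentration of at least 6.
Gm32810 to Cntnap5a, chr1:114849570-114849869: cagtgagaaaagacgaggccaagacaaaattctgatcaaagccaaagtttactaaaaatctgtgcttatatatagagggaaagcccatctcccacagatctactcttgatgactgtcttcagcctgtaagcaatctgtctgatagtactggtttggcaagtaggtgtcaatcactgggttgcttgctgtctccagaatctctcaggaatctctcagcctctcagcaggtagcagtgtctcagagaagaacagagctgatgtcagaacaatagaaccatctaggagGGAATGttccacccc
Lrrc4c to Iftap, chr2:99558275-99558574: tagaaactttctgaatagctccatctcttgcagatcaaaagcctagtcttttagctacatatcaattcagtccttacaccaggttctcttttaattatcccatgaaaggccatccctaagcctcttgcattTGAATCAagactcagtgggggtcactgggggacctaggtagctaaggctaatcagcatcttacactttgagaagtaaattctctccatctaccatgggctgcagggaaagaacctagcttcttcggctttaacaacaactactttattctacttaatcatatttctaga
Nr2f2 to 4930441H08Rik, chr7:71379125-71379424: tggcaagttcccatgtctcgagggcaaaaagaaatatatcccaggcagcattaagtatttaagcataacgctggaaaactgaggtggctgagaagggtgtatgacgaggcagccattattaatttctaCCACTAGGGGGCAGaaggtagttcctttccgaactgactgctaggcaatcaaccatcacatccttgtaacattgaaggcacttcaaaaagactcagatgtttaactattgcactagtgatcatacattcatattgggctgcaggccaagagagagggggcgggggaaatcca
1700015G11Rik to Mir6238, chr7:53136590-53136889: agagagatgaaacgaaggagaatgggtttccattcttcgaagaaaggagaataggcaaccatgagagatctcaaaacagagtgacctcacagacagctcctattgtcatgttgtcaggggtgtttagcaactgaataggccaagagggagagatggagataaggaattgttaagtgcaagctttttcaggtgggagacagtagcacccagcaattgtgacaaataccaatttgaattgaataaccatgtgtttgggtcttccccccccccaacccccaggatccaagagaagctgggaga
The site between Gm32810 and Cntnap5a had a concentration of 9.21 in WT and 9.34 in Smad2/3 DKO, means of 592 and 648 normalized reads, and held a Tead match (GGAATG). The farthest site from any TSS, 2063 kb away between Lrrc4c and Iftap, was at 8.20 in both genotypes and held an AP-1 match. The CTCF core match beside Nr2f2, an orphan nuclear receptor, was at 5.88 in WT and 5.86 in Smad2/3 DKO. The site between 1700015G11Rik and Mir6238 went from 5.80 to 7.38 and held none of the 11 motifs. The first 3 of these sites thus differed by 0.13 or less between the genotype means.

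Desert sites were sparser than others but not faint. Positions over 500 kb from a TSS made up 172.6 Mb, 7.21% of the sequenced autosomes, and held 17.1 sites per Mb. The density was 23.6 sites per Mb at 50 to 500 kb from a TSS, 281 within 1 kb and 30.8 over all autosomes. The median WT concentration of desert sites was 4.76, with quartiles of 4.00 and 5.71, and the median Smad2/3 DKO concentration was 4.56, with quartiles of 3.80 and 5.48. Over all autosomal sites the medians were 5.06 and 4.94, and at 50 to 500 kb they were 4.85 and 4.68. Desert sites therefore sat close to the other distal sites in level, whereas sites within 1 kb of a TSS were at 6.70 and 6.72. The width of a desert site was 360 bp in the median, against 370 bp at 50 to 500 kb.

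The 5 desert sites with the highest WT concentration were of the strength of many promoters, from 9.03 to 9.21. They lay between Gm32810 and Cntnap5a (chr1:114849110-114850330), between Kcna4, a voltage-gated potassium channel, and Gm13923 (chr2:107813530-107815010), between Gm2516 and 1190028D05Rik (chr8:50915100-50917320), between Gm12070 and Ccdc85a (chr11:27498680-27499750), and between Ppp6c and Mir6336 (chr2:40910560-40911410). The last of these lies inside Lrp1b, a very long lipoprotein receptor gene. Their differences ran from -0.45 at the Kcna4 site to 0.13, and none passed 1.5-fold.

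More desert sites were lower in Smad2/3 DKO than higher. Of the 2958 sites, 752 (25.4%) were lower, 283 (9.57%) were higher and 1923 (65.0%) passed 1.5-fold in neither direction. Over all autosomal sites 16.0% were lower and 8.55% were higher, so the share of lower sites was above the background and the share of higher sites was close to it. The median difference was -0.17, with quartiles of -0.59 and 0.19 and a range of -4.88 to 4.48, against a median of -0.08 over all autosomal sites. A difference below 0 was found at 62.4% of desert sites and at 57.5% of all autosomal sites.

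**Figure D1:**
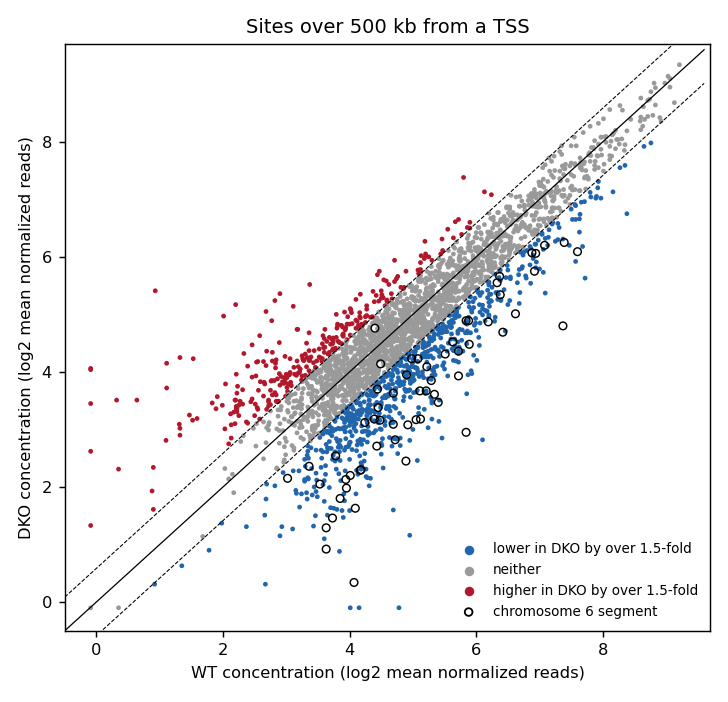
WT concentration (x axis) against Smad2/3 DKO concentration (y axis), both log2 mean normalized reads, for the 2958 desert sites, 1 point each. The solid line is equality and the dashed lines are 1.5-fold, with the 752 lower sites in blue, the 283 higher sites in red and the 60 sites of the chromosome 6 segment as open circles, all but 1 of which lie below the solid line.

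The share of lower sites increased with each step away from the TSS. It was 4.20% of sites within 1 kb, 15.9% of those at 1 to 5 kb and 16.9% of those at 5 to 50 kb. It reached 21.0% at 50 to 500 kb and 25.4% over 500 kb. The share of higher sites showed no such order beyond 5 kb, at 10.2%, 9.43% and 9.57%. Nothing changed abruptly at the 500 kb limit: the 516 sites at 450 to 500 kb had a median difference of -0.16 and 24.0% lower, and the 486 sites at 500 to 550 kb had -0.16 and 25.1%. Inside the deserts the share of lower sites was flat, at 25.4% of 1621 sites at 500 to 750 kb, 25.5% of 693 at 750 kb to 1 Mb and 25.3% of 644 beyond 1 Mb. The share of higher sites rose over the same steps, at 8.7%, 10.1% and 11.2%.

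The share of lower sites was above that of all autosomal sites at every level of concentration. Sites with a low concentration pass 1.5-fold more easily, so sites were compared within bins of their concentration over both genotypes. Below 4, which is a mean of 16 reads, 33.7% of 807 desert sites were lower, against 29.9% of all autosomal sites. Between 4 and 5 it was 24.4% of 998 desert sites against 19.1%. Between 5 and 6 the shares were 23.9% of 615 desert sites and 12.3%, and between 6 and 7 they were 18.8% of 336 and 8.11%. At 7 or above, 26 of 202 desert sites (12.9%) were lower and 0 were higher, against 2.45% and 0.702% of all autosomal sites, which are mostly near promoters. Sites at 50 to 500 kb with a concentration of 7 or above were in between, with 7.54% lower and 2.16% higher. In the lower bins, from the weakest up, 31.5%, 21.8%, 16.1% and 14.5% of sites at 50 to 500 kb were lower. These shares too lay between those of desert sites and of all autosomal sites. With a concentration of at least 4, 2151 desert sites remained (72.7%), of which 480 (22.3%) were lower against a background of 12.4%, and 135 (6.28%) were higher against 5.45%. These counts and those of the bins include the chromosome 6 segment described below, and 441 of the 480 lay outside it.

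**Figure D2:**
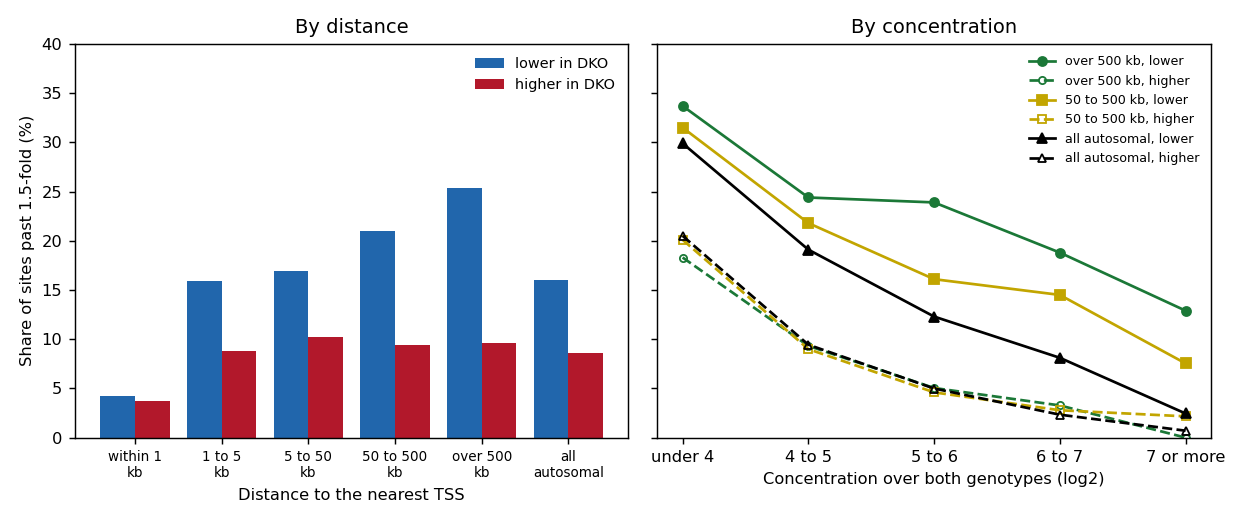
Left, share of sites (%) lower (blue) and higher (red) in Smad2/3 DKO by over 1.5-fold, by distance to the nearest TSS. Right, the same shares (solid lines lower, dashed lines higher) by concentration over both genotypes, where the desert sites, in green, lie above the other classes for lower sites in every bin, at 12.9% in the top bin.

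A segment of chromosome 6 stood apart and held 60 of the desert sites. It runs over 11.23 Mb (chr6:68829320-80057380), and was found by its own values, as consecutive sites around which the median difference of 25 neighbouring sites with a concentration of at least 4 was -0.5 or lower, so its difference is a description. Of its 60 desert sites, 58 were lower and 0 were higher, with a median WT concentration of 5.02 and a median Smad2/3 DKO concentration of 3.65, and of its 214 sites outside the deserts 199 (93.0%) were lower. The median difference was -1.43 in the former and -1.17 in the latter. The low values cannot be told apart from a property of the single Smad2/3 DKO clone. Without this segment, 694 of 2898 desert sites (23.9%) were lower and 283 (9.77%) were higher, with a median difference of -0.16. The same search gave 3 shorter stretches, of 1.10 to 2.33 Mb on chromosomes 1, 16 and 19. The one on chromosome 19, between Sorcs3, a sortilin-family receptor, and Gm26629, held 19 desert sites with 10 lower and 0 higher. That on chromosome 16 held 3, with 2 lower and 0 higher. That on chromosome 1 (chr1:147125500-148623410) held 23, with 7 lower and 7 higher, and lies within the part of chromosome 1 described next.

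Chromosome 1 from 140 to 150 Mb was also singled out after its values were seen, because it held 3 of the 10 largest decreases and 4 of the 10 largest increases among sites with a concentration of at least 4 in the higher genotype. Of its 84 desert sites 31 (36.9%) were lower and 15 (17.9%) were higher, and its differences spanned the whole range from -4.88 to 4.48. The 149 sites of the same stretch outside the deserts had 22.1% lower and 13.4% higher. Without both stretches 663 of 2814 desert sites (23.6%) were lower and 268 (9.52%) were higher, against 15.7% and 8.57% over all autosomal sites without them. The excess of lower sites in deserts therefore did not rest on either stretch.

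By chromosome, the share of lower desert sites was highest on chromosome 6 (47.8% of 186 sites), chromosome 19 (38.7% of 62) and chromosome 16 (37.7% of 106), and lowest on chromosome 15 (15.9% of 151). On chromosome 6 outside the segment it was 24.6% of 126 sites. Chromosome 1, with 338 sites, had the highest share of higher sites, 17.5%, and this was not due to the 140 to 150 Mb stretch, since 44 of the 254 sites outside it (17.3%) were higher and as many were lower.

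Among sites with a concentration of at least 4 in the higher genotype, the largest differences were mostly at sites with few reads in the other genotype. The largest decrease was at chr1:149115820-149116250 between Brinp3, a neural gene induced by Bmp and retinoic acid, and Pla2g4a, a cytosolic phospholipase, where WT was at 4.78 and Smad2/3 DKO at the lowest listed value, -0.10. A large difference in the other direction occurred in the same desert, where the site at chr1:147591790-147592130 was at 0.93 in WT and 5.41 in Smad2/3 DKO, means of 1.91 and 42.5 reads. Outside both stretches the largest decreases were at chr5:6742390-6742570 between Steap1 and Tex47, from 4.01 to -0.10, and at chr3:78285480-78285710 between Fstl5, a follistatin-like gene, and Rapgef2, from 4.95 to 1.16. The largest increases outside both stretches included chr13:80023900-80024200 between Nr2f1 and Arrdc3, from 2.20 to 5.17. In all, 5 desert sites were at the lowest listed Smad2/3 DKO value and 6 at the lowest WT value, which correspond to means of under 1 normalized read. Of these, 3 of the 5 and 2 of the 6 had a concentration of at least 4 in the other genotype, and the rest were weak in both.

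The 2958 sites fell into 247 deserts, taken as the intervals between neighbouring curated TSSs. Autosomes have 267 such intervals over 1 Mb, the least length that can hold a desert site, and 246 of them held at least 1 site and 21 none. The remaining desert is the start of chromosome 1 up to Xkr4. Lengths ran from 1.01 to 4.15 Mb with a median of 1.52 Mb. The number of sites ranged from 1, in 23 deserts, to 65, with a median of 8, and 109 deserts with 10 sites or more held 2397 sites (81.0%). The 10 fullest deserts held 500 sites, 16.9% of all.

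**Figure D3:**
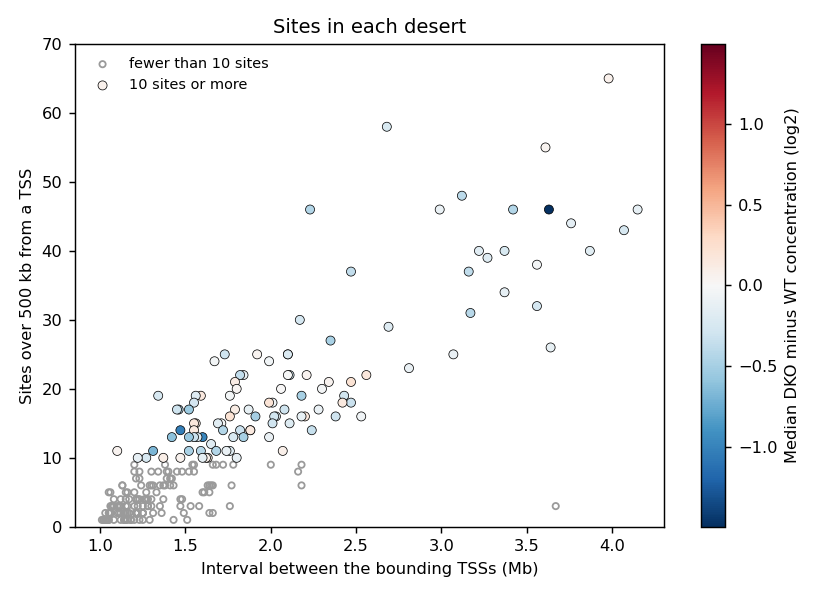
Length of each of the 247 deserts in Mb (x axis) against its number of sites over 500 kb from a TSS (y axis), with the 109 deserts of 10 sites or more filled by their median difference between Smad2/3 DKO and WT (log2). Longer deserts held more sites, up to 65, and 1 desert, at -1.495, is the darkest blue. Next are the deserts from Rprl1 to Rpia, at -1.03, and from Sel1l to 4930559C10Rik, at -0.99.

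Lower sites were spread over most deserts rather than a few. Among the 109 deserts with 10 sites or more, the median difference was below 0 in 82, above 0 in 26 and 0 in 1. Lower sites outnumbered higher ones in 79, were outnumbered in 15 and equal in 15, and 20 deserts had no higher site. All autosomal sites leaned the same way, with a median difference of -0.08 and 16.0% lower against 8.55% higher. How many groups of other sites would lean below 0 was not counted, so these counts are not particular to deserts. The share of lower sites in a desert had a median of 21.4% and quartiles of 14.3% and 31.6%. The median difference ranged from -1.495 in the desert from Gm31747 to Lrrtm1, in the chromosome 6 segment, to 0.22 in the desert from Cox7c, a cytochrome c oxidase subunit, to Gm34585, where 1 of 21 sites was lower and 5 were higher.

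The fullest desert, 3.98 Mb on chromosome 10 between D030045P18Rik and Grik2, a kainate receptor subunit, held 65 sites with hardly any net difference, as 8 were lower, 7 were higher and the median difference was 0.08. The second, 2.68 Mb on chromosome 13 between Nr2f1, an orphan nuclear receptor of neural development, and Arrdc3, an arrestin-domain gene, held 58 sites, of which 15 were lower and 4 higher, with a median of -0.25. In the desert from Gm20268 to Cdh20, a cadherin gene on chromosome 1, higher sites prevailed, with 12 higher and 6 lower among 55. The desert from Got2, the mitochondrial aspartate aminotransferase, to Gm15679 on chromosome 8 held 48 sites, 15 lower and 2 higher, with a median of -0.41. The fullest deserts thus did not share a direction.

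The other 6 of the 10 fullest deserts held 44 to 46 sites each. Between Gm31747 and Lrrtm1, a postsynaptic adhesion gene on chromosome 6, all 46 sites were lower, from -0.74 to -2.89. Between Brinp3 and Pla2g4a on chromosome 1, 19 of 46 were lower and 9 higher, with a median of -0.44. Between Flrt3, a cell adhesion gene that also takes part in Fgf signalling, and Kif16b, a kinesin, 12 of 46 were lower and 0 higher. Between Lrrc4c, a netrin-G ligand, and Iftap, 10 of 46 were lower and 3 higher. Between Gm15501 and Tenm4, a teneurin, 8 of 46 were lower and 5 higher, and between 4930474H20Rik and Pcdh9, a protocadherin, 9 of 44 were lower and 2 higher. Lower sites outnumbered higher ones in all 6.

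**Figure D4:**
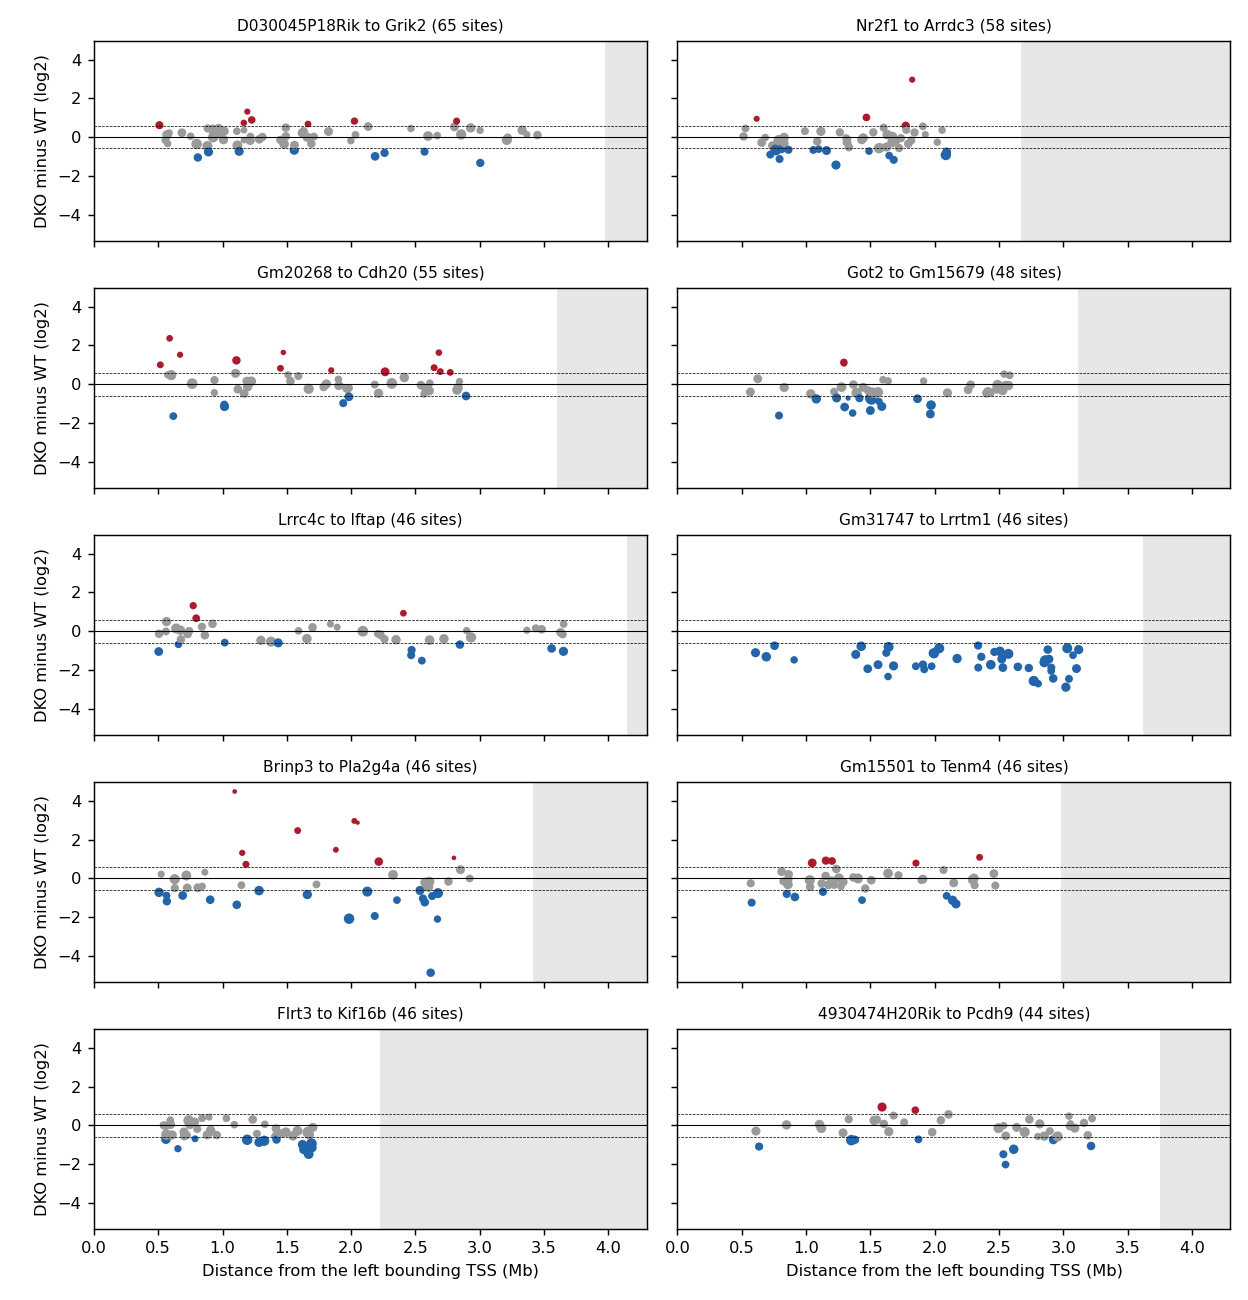
Difference between Smad2/3 DKO and WT concentration (log2, y axis) at each site along the 10 fullest deserts, against distance from the left bounding TSS in Mb (x axis). Larger points have a higher WT concentration, blue and red points are past 1.5-fold (dashed lines), and grey areas lie beyond the right bounding TSS. All 46 sites between Gm31747 and Lrrtm1 are blue, while the deserts from D030045P18Rik to Grik2 and from Gm20268 to Cdh20 hold both colours along their length.

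Apart from the 2 deserts of the chromosome 6 segment, the desert with 10 or more sites and the highest share of lower sites lay between Sel1l, an endoplasmic reticulum quality control gene, and 4930559C10Rik on chromosome 12, with 8 of 13 lower and 2 higher and a median of -0.99. Next came the deserts from Grxcr1 to Kctd8 on chromosome 5, with 6 of 11 lower and 0 higher, and from Pcdh20 to Gm5088 on chromosome 14, with 7 of 13 lower and 1 higher. The highest shares of higher sites were 5 of 14 between 1700015G11Rik and Mir6238 on chromosome 7, and 5 of 15 between 4930548K13Rik and Epha7, an ephrin receptor gene on chromosome 4. No site was lower among 15 between Lrrn3, a neuronal leucine-rich repeat gene, and Gm33340 on chromosome 12, or among 10 between A530072M11Rik and Gm30092 on chromosome 4. These deserts were picked for their shares, which are therefore a description.

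Desert sites were less crowded than other sites, yet most had a near neighbour. Of the 2958, 1569 (53.0%) lay within 20 kb of another desert site, midpoint to midpoint, against 66.0% of sites at 50 to 500 kb and 74.8% of all autosomal sites by the same measure over all listed sites. They formed 628 runs, of which 203 had 3 sites or more and the largest had 8. Sites in runs and lone sites differed little, with 25.1% and 25.8% lower and median WT concentrations of 4.81 and 4.69. Neighbouring desert sites within 20 kb had only weakly related differences outside the chromosome 6 segment, with Pearson's r of 0.16 over 917 pairs, and pairs further apart had 0.05 over 1736 pairs. These correlations are across sites that share the same libraries.

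The largest run, 8 sites over 71.8 kb (chr1:149056000-149127750) between Brinp3 and Pla2g4a, had 4 lower sites, and all 8 differences were below 0, from -0.18 to -4.88. A run of 7 between Gm31747 and Lrrtm1 (chr6:76460860-76530530) was lower throughout. A run of 6 sites over 40.1 kb (chr2:142334390-142374500) between Flrt3 and Kif16b had a median WT concentration of 6.68 and a median Smad2/3 DKO concentration of 5.80, with 3 lower and its strongest site at 8.63 in WT. A run of 6 between Tafa2, a secreted chemokine-like gene, and 4930503E24Rik (chr10:123800980-123840980) had 4 lower and medians of 6.03 and 5.36. By contrast, a run of 6 inside Lsamp (chr16:40579240-40621600), a neuronal adhesion gene with TSSs on both sides of the interval, had 1 lower and 1 higher site and a median difference of -0.02. There were 3 other runs of 6 sites, between Got2 and Gm15679 with 3 lower and 0 higher, between Kcna4 and Gm13923 with 2 lower and 0 higher, and between Sorcs1 and Ins1 with 0 lower and 1 higher. All 6 runs of this size lay outside both stretches, and 3 of them had at least 3 lower sites.

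Distance from a TSS does not mean absence of a gene. The midpoint lay inside the body of a curated gene at 383 desert sites (12.9%), in 47 genes, and in a predicted gene alone at 132 more, while 200 of the 247 deserts had no site inside a curated gene. Macrod2, an ADP-ribose hydrolase gene, held all 46 sites of the Flrt3 to Kif16b desert, of which 12 were lower and 0 higher. Lrp1b held 29 sites with 5 lower and 3 higher. Ptprd, a receptor phosphatase at synapses, held 19 with 1 lower and 2 higher, and Erbb4, a neuregulin receptor, 17 with 6 lower and 3 higher. The 383 sites inside genes had 21.7% lower and 7.57% higher and the 2575 outside had 26.0% and 9.86%, with a median difference of -0.17 in both.

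The deserts were bounded by 456 genes, of which 285 were protein-coding, 142 long noncoding and 16 miRNA genes. A list of 118 annotated synaptic, adhesion and axon guidance genes gave 60 of these, 50.9% of the list, against 456 of 24963 annotated autosomal genes (1.83%). That list was drawn up with the knowledge that such genes neighbour deserts, so its size is not independent evidence. The annotated autosomal genes also include noncoding ones. The 71 deserts beside them held 1170 sites, with 25.4% lower, 9.23% higher and a median difference of -0.18, close to the values over all desert sites. The deserts of this group thus leaned as the others did, from 46 of 46 lower beside Lrrtm1 and 12 of 31 beside Ncam2, to 1 of 16 beside Cntn5, where 4 were higher.

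Developmental transcription factors bounded 13 deserts with 143 sites, of which 36 (25.2%) were lower and 11 (7.69%) higher, with a median difference of -0.20. The genes were 13 of 156 on the list (8.33%), against 1.83% of all annotated autosomal genes. The latter include noncoding genes, and the list was chosen with earlier results of these data known, so these shares are not a like comparison. Nr2f1 accounted for 58 of the sites. Beside Zfp804a, a zinc finger gene, 4 of 6 sites were lower, beside Maf, a bZIP factor whose desert lies partly within Wwox, 3 of 10, and beside Trps1, a GATA-type repressor, 3 of 25 were lower and 4 higher. Dach1 had 1 lower and 1 higher of 12, and Sall1 1 lower of 8. Most of these deserts held few sites, and only those of Nr2f1, Trps1, Dach1 and Maf had 10 or more.

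Of 68 listed genes of the Nodal, activin, TGF-beta and Bmp pathway, 1 (1.47%) bounded a desert with sites, near the 1.83% of all annotated autosomal genes. This was Fstl5, a follistatin-like gene, where 9 of 25 sites were lower and 4 higher. The list is not complete, and Rgmb, a Bmp co-receptor with 4 sites, and Vwc2, a Bmp antagonist with 25, are not on it and also bounded deserts. Of 41 pluripotency and priming genes, 2 (4.88%) did. Klf4, a naive pluripotency factor, had 2 sites, at differences between -0.29 and 0.13, and Sox11, a Sox factor of the epiblast and nervous system, had 2 sites with 1 lower, at differences of -0.69 and -0.08. With 1 and 2 genes, these lists are too small to compare with the share over all genes.

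Desert sites were richer in repeats than other sites, and sites higher in Smad2/3 DKO were the richest. Repeat-masked bases, taken as the lower-case bases of the RefSeq assembly, made up on average 41.4% of the 300 bases around a desert site, against 26.7% at 50 to 500 kb and 20.9% over all autosomal sites. The mean was 33.5% in lower desert sites, 42.5% in those past in neither direction and 55.1% in higher ones. The median GC content of desert sites was 46.3% and that of all autosomal sites 51.0%, and there were 1.22 and 3.11 CpG per 100 bases. Higher desert sites that reached a concentration of 4 had 53.0%, so this was not limited to weak sites. Higher sites at 50 to 500 kb had 35.3%, lower ones 22.5%.

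Turned around, outside the chromosome 6 segment 34.7% of the 314 desert sites with no masked base were lower and 5.41% were higher, whereas among the 1128 sites with over 50% masked 17.3% were lower and 14.6% higher. The median difference was -0.32 in the former and -0.04 in the latter. With a concentration of at least 4 the shares of lower sites were 33.1% of 245 and 13.4% of 764. At 50 to 500 kb, unmasked sites were lower in 21.4% and higher in 7.97%, and those with over 50% masked were lower and higher in 768 and 729 of 5094 sites. The gap between deserts and sites at 50 to 500 kb in the share of lower sites was thus widest where no base was masked, at 34.7% against 21.4%. It was narrow where over 50% was masked, with 195 of 1128 desert sites lower. The authors discarded reads that did not map uniquely, and the part of that step in these values was not tested.

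Octamer and FoxH1 matches were more frequent in lower desert sites. An octamer was found in 57 of 752 lower sites (7.58%), 79 of 1923 past in neither direction (4.11%) and 5 of 283 higher ones (1.77%), against 3.14% of all autosomal sites and 5.28% of the lower ones among these. FoxH1 matches were found in 21 lower sites (2.79%), 12 in neither direction (0.624%) and 2 higher ones (0.707%), against 1.08% of all autosomal sites. Otx2 matches were in 13.0%, 10.4% and 8.48%, against 8.71%. Lower sites at 50 to 500 kb had similar shares, with an octamer in 6.24%, a FoxH1 match in 2.49% and an Otx2 match in 11.8%, so these matches are not particular to deserts. Foxd3 matches (TGTTTAC) were about as frequent in lower and higher desert sites, at 8.11% and 8.48%, and Tead matches likewise, at 20.7% and 21.9%. Klf matches (GGGNGNGGC) occurred in 7.17% of desert sites and 18.2% of all autosomal sites, and a CTCF core in 9 desert sites (0.304%), against 0.738%. The palindromic Smad string (GTCTAGAC) was in 5 desert sites (0.169%) and the Essrb string (TCAAGGTCA) in 19 (0.642%), against 0.225% and 0.492% of all autosomal sites, too few to compare by direction. The masked share of a window and its motif matches come from the same bases, and their separate parts were not tested.

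Among desert sites with a concentration of at least 4 outside the chromosome 6 segment, the 111 with an octamer had a median difference of -0.44, with 36.0% lower and 1.80% higher, and the 1999 without had -0.15, 20.1% and 6.65%. The 21 with a FoxH1 match had a median of -0.67, with 12 lower and 0 higher, against 20.5% and 6.46% of those without. Otx2, Foxd3, Sox and AP-1 matches went with shares of lower sites of 24.0% to 24.5%, against 20.5% to 20.7% of sites without them, and Tead and Klf matches with 20.2% and 16.7%. The FoxH1 group was small, and 9 of its 21 sites did not pass 1.5-fold. A match is a string of letters and not a bound site, and all motifs were counted on both strands with overlaps allowed.

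**Figure D5:**
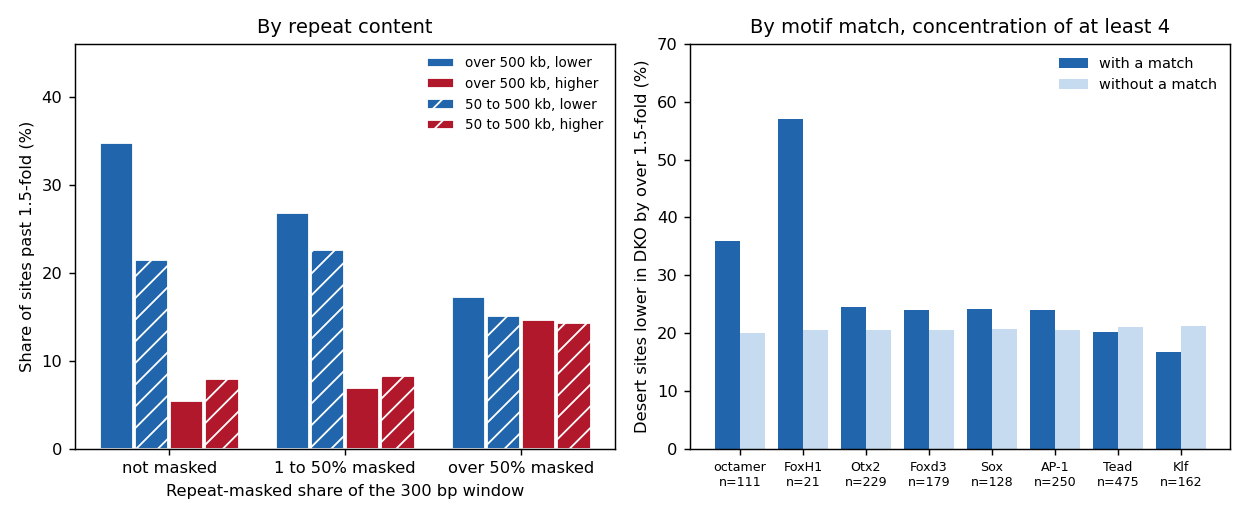
Left, share of sites (%) lower (blue) and higher (red) by the repeat-masked share of the 300 bp window, for desert sites (plain) and sites at 50 to 500 kb (hatched). Right, share (%) of desert sites with a concentration of at least 4 that were lower, with and without a match to each motif, n being the sites with a match. Both panels leave out the chromosome 6 segment, and the octamer and FoxH1 bars, at 36.0% and 57.1%, stand above the rest.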

How the data were processed

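Paired-end ATAC-seq reads were aligned by the authors to mm10 with Bowtie2, leaving out mixed and discordant pairs. Reads that mapped to more than 1 place or to a blacklist were discarded, and PCR duplicates were removed with SAMtools. Sites were called with the dpeak function of DANPOS2 on the triplicates, with the Tn5-treated genomic DNA as control, and compared with DiffBind. The submitters' processing notes name Bowtie2, SAMtools and DiffBind, and the versions and the normalization are not given in the sources used here. The deposited table holds log2 concentrations, read here as DiffBind defines them (log2 of the mean normalized read number), for all libraries and for each genotype. It also holds the authors' own fold changes, p-values and FDRs, which were not used. With no value per library, no depth per sample, interval over replicates or test could be computed, and shares are descriptions.

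TSSs and gene bodies were those of 45756 curated RefSeq transcripts of 26180 genes (GRCm38.p6, the build of mm10), and 2144 sites on X and Y were left out. Distances, runs, motif matches and medians were computed with Python 3.11.15, pandas 2.3.3 and numpy 2.4.6 and tested on simulated data, and sequences were read from the RefSeq assembly. Genes named are those that bound the 10 deserts with the most sites, the deserts with the 10 largest decreases and increases (concentration of at least 4 in the higher genotype) and deserts beside pathway and pluripotency genes, together with the 5 runs with the most sites (ties by span, and the 3 other runs of 6 sites were added after their values were seen) and the 5 sites with the highest WT concentration. A site that this rule names is not reported here. Others, such as the deserts with the highest shares, were chosen after their values were seen. The sites, lists and rules were chosen with earlier results of these data known. Alternatives varied the distance, the transcripts, the edge or midpoint, the concentration, centring, fold, run gap and window, and left out single stretches.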

Additional observations from a re-analysis of the deposited data

How the results depend on the processing

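Of 69 alternative values, 48 stayed within the limits set and 21 moved. The limits were 1.5 times a count, the 95% binomial interval of a median or share, and 1 percentage point of GC content. That interval was taken over sites, which are not replicates, and serves here only as a limit. A change of direction was scored for the median difference alone, and 0 of its alternatives changed direction. The definition of a desert moved the counts and hardly the shares. Beyond 1 Mb there were 644 sites in 50 deserts, with 163 lower (25.3%) and 72 higher (11.2%) and a median WT concentration of 4.69. With predicted transcripts added there were 739 sites in 93 deserts, with 179 lower (24.2%) and 66 higher (8.93%). With protein-coding transcripts only there were 4791 sites, with 1197 lower (25.0%) and 455 higher (9.50%). A concentration of at least 4 left 480 lower and 135 higher sites and raised the medians to 5.21 in WT and 4.98 in Smad2/3 DKO, as it removes weak sites by construction. At 2-fold, 364 sites (12.3%) were lower and 104 (3.52%) higher. After centring on the median of all autosomal sites, -0.08, the median difference was -0.09, with 662 lower (22.4%) and 350 higher (11.8%). Sites with a neighbour made up 31.7% within 10 kb and 82.1% within 50 kb, against 53.4% and 94.4% of all autosomal sites. Leaving out chromosome 1 from 140 to 150 Mb, an alternative chosen after seeing the data, left 721 of 2874 sites lower (25.1%) and 268 higher (9.32%). Leaving out each differentiation in turn could not be run, since the table holds genotype means. No paired analysis was possible because the columns carry no replicate and no result comes from a test.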
